A study of Mus musculus with 16 samples.

Results

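The interleukin-1 genes examined here were 10 genes chosen by symbol: the agonists Il1a, Il1b, Il1f6 (also written Il36a), Il18 and Il33, the receptor antagonist Il1rn, the receptors Il1r1, Il1rap and Il1rl1, and the decoy receptor Il1r2. The annotation used names probe sets for 9 of them. Il1rl1, the receptor of interleukin-33, was therefore not analysed here. The 9 genes had 16 of the 45101 probe sets on the array, and 13 of these were among the 25563 probe sets, covering 12571 genes, that passed a filter on low values. The 3 that did not pass, 1 of Il1r1 and 2 of Il1rap, stayed between 1.79 and 18.9 on every array, against a median of 34.4 over the whole table.

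The skin came from iK5-TERT mice (K5tTA-tetop-TERT), which carry a tetracycline transactivator driven by the keratin-5 promoter and a Tert transgene under the tet operator. The promoter is active in basal epidermis and the outer root sheath, while the arrays read whole skin. All mice, in both cohorts, had drunk doxycycline (5 mcg/ml) until postnatal day 10 to 21 and were sampled at day 60. The labels place the follicles of all of them in anagen, the growth phase. Hair shaft markers at 0 h went against that label in TERT-off replicate 1, where they summed to 245, against 25507 in TERT-off replicate 2, 13387 in TERT-on replicate 1 and 6811 in TERT-on replicate 2, the TERT-on sums lacking 3 values. The TERT-off cohort was injected with doxycycline (8 mcg per g), which silences the transgene, and the TERT-on cohort with PBS. Dorsal biopsies of 3 cm2 were taken at 0, 6, 12 and 24 h, and the 8 groups held 2 arrays each, 16 in all. The biopsies are described as serial in both cohorts, and arrays of 1 replicate number within a cohort were taken here as those of 1 mouse, which no label states. The labels call the 0 h biopsies of the TERT-off cohort injected, whereas by the study's account they were taken before the injection. Tert itself read 185 and 200 in TERT-off mice and 357 and 216 in TERT-on mice at 0 h. Over 6 to 24 h it lay at 8.32 to 16.1 in TERT-off mice and 22.6 to 64.6 in TERT-on mice, so that it was lower than at 0 h in the TERT-on cohort as well.

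Interleukin-1 is an alarm signal of the epidermis. Keratinocytes store interleukin-1 alpha and interleukin-33 and release them when damaged, while interleukin-1 beta and interleukin-18 are made as precursors that caspase-1 cuts in inflammasomes. Apart from interleukin-18, the ligands bind a primary receptor (Il1r1 for Il1a and Il1b, Il1rl1 for Il33, Il1rl2 for the Il1f6 product). This receptor recruits the shared accessory chain Il1rap and signals through Myd88 to NF-κB. A pair of brakes acts outside the cell: the antagonist Il1rn occupies Il1r1 without signalling, and Il1r2 binds ligand but lacks the signalling domain.

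RefSeq (GRCm38.p6) gave promoter windows for 9 of the 10 listed genes, 14 windows in all, each holding the 250 bases before an annotated start. The 4 windows that follow are shown because they belong to the pair of interleukin-1 ligands and to the genes with the largest differences at 24 h and at 6 and 12 h in the results. Capitals mark TATAAA and TGANTCA, the letters of the TATA box and of an AP-1 site, searched on both strands. The windows are Il1a (chr2:129309973-129310222, minus strand), Il1b (chr2:129371140-129371389, minus strand), the downstream one of both starts of Il33 (chr19:29945540-29945789, plus strand) and Il1r2 (chr1:40085843-40086092, plus strand).
Il1a: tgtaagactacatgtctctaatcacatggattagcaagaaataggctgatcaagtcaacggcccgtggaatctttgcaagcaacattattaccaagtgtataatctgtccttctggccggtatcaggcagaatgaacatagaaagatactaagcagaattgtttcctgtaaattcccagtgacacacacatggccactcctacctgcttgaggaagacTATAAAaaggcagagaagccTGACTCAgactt
Il1b: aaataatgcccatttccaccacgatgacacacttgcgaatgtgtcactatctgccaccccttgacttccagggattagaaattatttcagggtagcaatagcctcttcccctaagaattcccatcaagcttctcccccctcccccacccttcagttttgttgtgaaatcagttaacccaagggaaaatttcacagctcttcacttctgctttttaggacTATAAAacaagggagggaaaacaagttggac
Il33: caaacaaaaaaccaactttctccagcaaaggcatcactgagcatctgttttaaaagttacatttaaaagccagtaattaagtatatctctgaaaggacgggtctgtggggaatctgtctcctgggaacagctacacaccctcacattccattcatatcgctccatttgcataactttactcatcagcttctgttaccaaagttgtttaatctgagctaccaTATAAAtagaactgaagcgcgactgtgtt
Il1r2: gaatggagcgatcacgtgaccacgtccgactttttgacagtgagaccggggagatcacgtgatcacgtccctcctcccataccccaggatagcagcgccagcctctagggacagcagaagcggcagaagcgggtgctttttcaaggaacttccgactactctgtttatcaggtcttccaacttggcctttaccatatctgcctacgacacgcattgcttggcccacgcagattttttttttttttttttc

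The ligand windows of Il1a, Il1b and Il33 held TATAAA with its first base 32, 31 and 29 bases before the start, and the window of Il1r2 held none. Among the windows not shown, TATAAA occurred in the upstream one of Il33 and in that of Il18, 203 and 175 bases before the start. At any position and on either strand, it occurred in 12.4% of the 32851 promoter windows of that length. The AP-1 letters were found in Il1a, 12 bases before the start, and in 1 window of Il1rn, against 6.75% of all windows. A match to the NF-κB consensus occurred in 3.9% of all windows and in 1 of the 14, at the downstream start of Il1r1. These are matches of letters and were not tested as binding sites.

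Values are dChip intensities, a linear scale on which probe sets of different genes cannot be set against each other. Differences are TERT-off minus TERT-on on the log2 scale, from 1 limma fit over all arrays, with p-values adjusted by Benjamini-Hochberg across all 25563 probe sets, and are called where the adjusted p is under 0.05. Over 6 to 24 h, 8 of the 9 measured genes were higher in TERT-off skin and none was lower, with Il1rn not called. Over all genes tested, 16.9% were called higher in that comparison. The median difference of the 9 genes was 0.83, against 0.04 over all genes. At 0 h the medians were 0.44 for the 9 genes and −0.02 for all genes. The count over 6 to 24 h was 7 with no filter on low values and 8 under every other change of floor, filter, scaling, block and moderation that was tried. It was 7 when TERT-off replicate 1, the mouse with few hair shaft transcripts at 0 h, was left out, with Il1a no longer called. It fell to 5 when TERT-on replicate 1 was left out and to 0 when TERT-on replicate 2 was, with calls over all 25563 probe sets of 956 and 62, against 6625 with all mice. Il33 and Il18 lacked 1 TERT-off value each, and the other 7 genes had values on all 16 arrays.

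**Figure D1:**
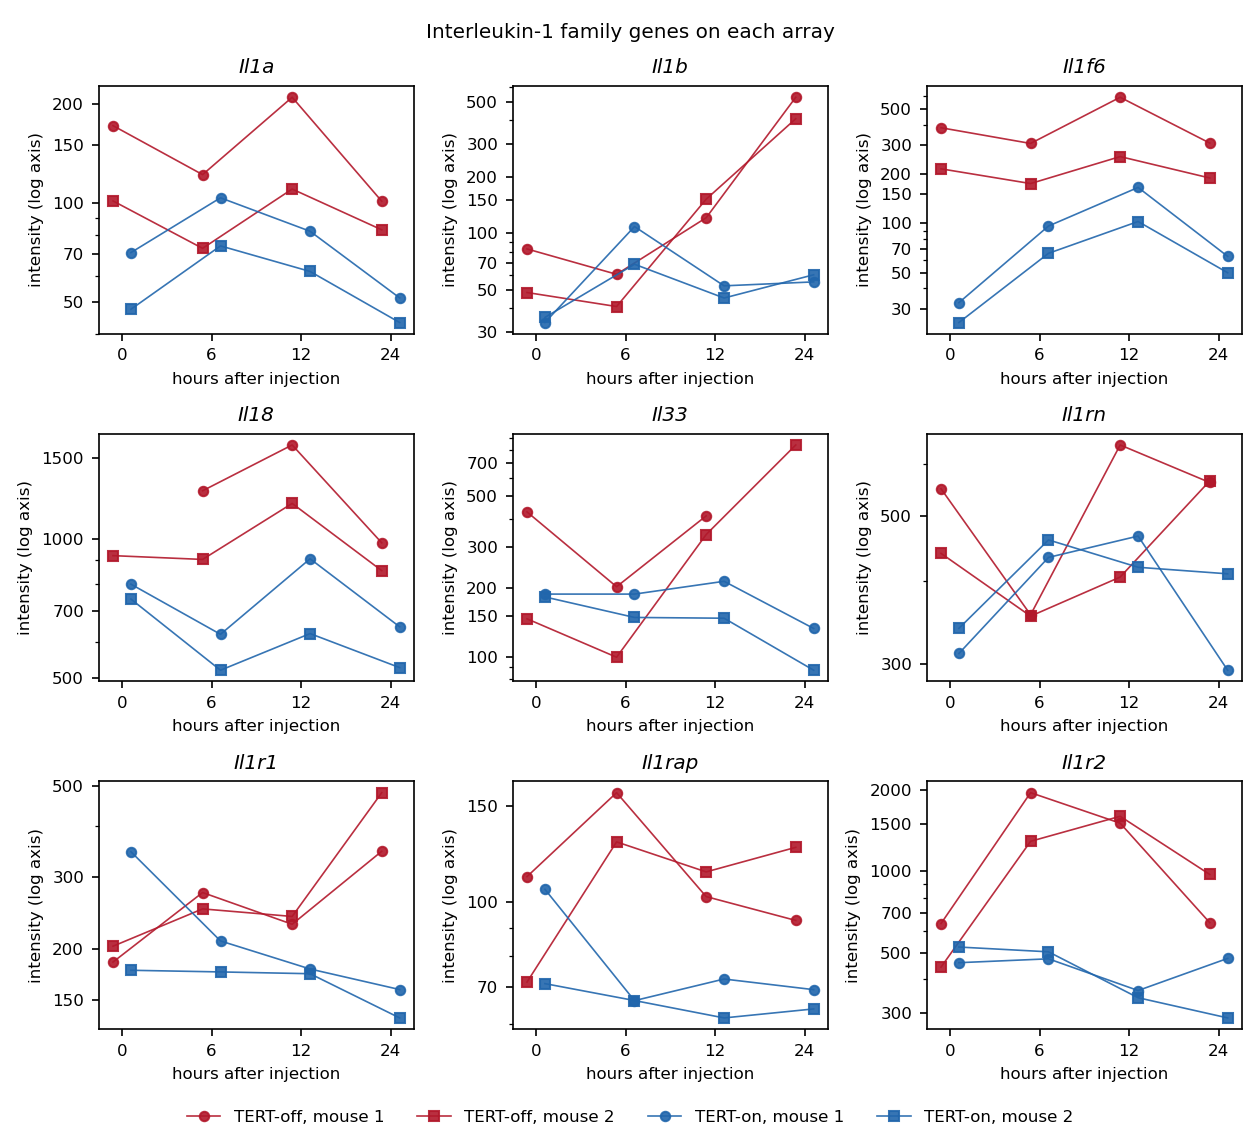
Intensity (log axis, in dChip units) of the 9 measured interleukin-1 genes on each array against hours after injection, drawn at equal spacing, with 1 line per mouse and TERT-off left of TERT-on. Il1b of both TERT-off mice lies between 409 and 532 at 24 h, above all other arrays, and Il1r2 of both TERT-off mice lies above both TERT-on mice at 6, 12 and 24 h.

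Among the agonists, Il1b was higher in TERT-off skin at 12 and 24 h but not at 6 h. The intensity of TERT-off replicate 1 was 82.7, 60.6, 121 and 532 at 0, 6, 12 and 24 h, and that of TERT-off replicate 2 was 48.5, 40.8, 152 and 409. The TERT-on replicates read 33.6, 109, 52.6 and 55.2 (replicate 1) and 35.7, 68.6, 45.3 and 60.3 (replicate 2) in the same order of times, which all further lists of 4 values follow. At 6 h both TERT-off values lay below both TERT-on values, and at 0, 12 and 24 h both lay above. The log2 difference was 3.01 at 24 h (standard error 0.30, adjusted p = 0.0016), an 8.08-fold higher level, and 1.48 at 12 h (adjusted p = 0.0374). At 6 h it was −0.80 (adjusted p = 0.157) and at 0 h 0.87 (adjusted p = 0.538), and neither passed. Averaged over 6 to 24 h it was 1.23 (standard error 0.18, adjusted p = 0.00263).

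The turn of Il1b between 6 and 24 h was itself tested, in a comparison added after the values had been seen. The difference between the cohorts was larger at 24 h than at 6 h by 3.81 (95% interval 2.93 to 4.69, adjusted p = 0.00902), and Il1b was the 1 gene of 9 called there, against 0.199% of all genes called in that direction. The count was 0 when TERT-off replicate 2 or either mouse of the TERT-on cohort was left out. Il33 had a difference of 3.29 in the same comparison and did not pass (adjusted p = 0.136). Neutrophil markers had median differences between the cohorts of 0.33, 0.43, 1.13 and 3.27 in order of time. Their part in the Il1b result was not tested.

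Il33, an alarmin held in the nucleus, was also called at 24 h. TERT-off replicate 1 read 428, 202, 411 and no value, and replicate 2 read 146, 99.3, 341 and 838. TERT-on replicate 1 read 187, 187, 213 and 133, and replicate 2 read 182, 148, 147 and 87.2. At 0 and 6 h the TERT-off mice lay on either side of the TERT-on mice, and at 12 h both lay above. The difference at 24 h was 3.05 (standard error 0.54, adjusted p = 0.025), which rests on 1 TERT-off array. Its standard error and p take the spread from the other groups, on the assumption that the lone array varies like them. Over 6 to 24 h it was 1.30 (standard error 0.30, adjusted p = 0.0119), from 5 TERT-off and 6 TERT-on arrays.

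Il1f6, the interleukin-36 agonist of keratinocytes, had both TERT-off values above both TERT-on values at every time, including 0 h. Its intensity ran through 382, 307, 587 and 308 in TERT-off replicate 1 and 215, 175, 255 and 189 in TERT-off replicate 2. The TERT-on mice had 32.8, 96.1, 165 and 62.8 in replicate 1 and 24.8, 65.5, 102 and 49.9 in replicate 2. No TERT-off array of 6 to 24 h fell to the level of any TERT-on array. At 0 h the difference was 3.33 (standard error 0.41, adjusted p = 0.02), 10.1-fold, and Il1f6 was the 1 gene of 9 called at 0 h, where 0.0318% of all genes were called higher. That call was lost with no filter on low values, and when TERT-off replicate 1, either TERT-on mouse or the single 0 h array of TERT-on replicate 1, which read low in RNA quality, was left out. The difference over 6 to 24 h was 1.74 (standard error 0.25, adjusted p = 0.00247) and at 24 h 2.11 (adjusted p = 0.0298). Relative to their own 0 h level the TERT-off mice had a log2 change of −0.04 (adjusted p = 0.961) and the TERT-on mice one of 1.55 (adjusted p = 0.072), and neither passed. All 6 changes of the TERT-on arrays from the 0 h array of their own replicate number were positive (0.94 to 2.33), and with the mouse as a fixed effect the change of 1.55 was called (adjusted p = 0.00251).

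Il1a, the stored epidermal agonist, averaged 0.72 higher on the log2 scale across 6 to 24 h (limma adjusted p = 0.0295, standard error 0.21). TERT-off replicate 1 measured 172, 122, 210.3 and 101, TERT-off replicate 2 102, 72.8, 110.5 and 83.0. For TERT-on the values were 70.7, 104, 82.1 and 51.4 in replicate 1 and 47.5, 74.1, 61.9 and 43.3 in replicate 2. The cohorts overlapped at 6 h, and the difference of 1.19 at 0 h, which did not pass (adjusted p = 0.507), was larger than that over 6 to 24 h. The call was lost with no filter on low values and when TERT-off replicate 1 or either TERT-on mouse was left out.

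Il18, the precursor that caspase-1 cuts beside Il1b, was higher in TERT-off skin over 6 to 24 h but at no single time taken alone. TERT-off replicate 1 had no value, 1272, 1598 and 982, and replicate 2 had 921, 904, 1194 and 855. TERT-on replicate 1 had 799, 622, 907 and 646, and replicate 2 had 742, 521, 625 and 527. Each TERT-off value was above both TERT-on values of its own time. The difference over 6 to 24 h was 0.81 (standard error 0.13, adjusted p = 0.00443), a 1.76-fold higher level.

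**Figure D2:**
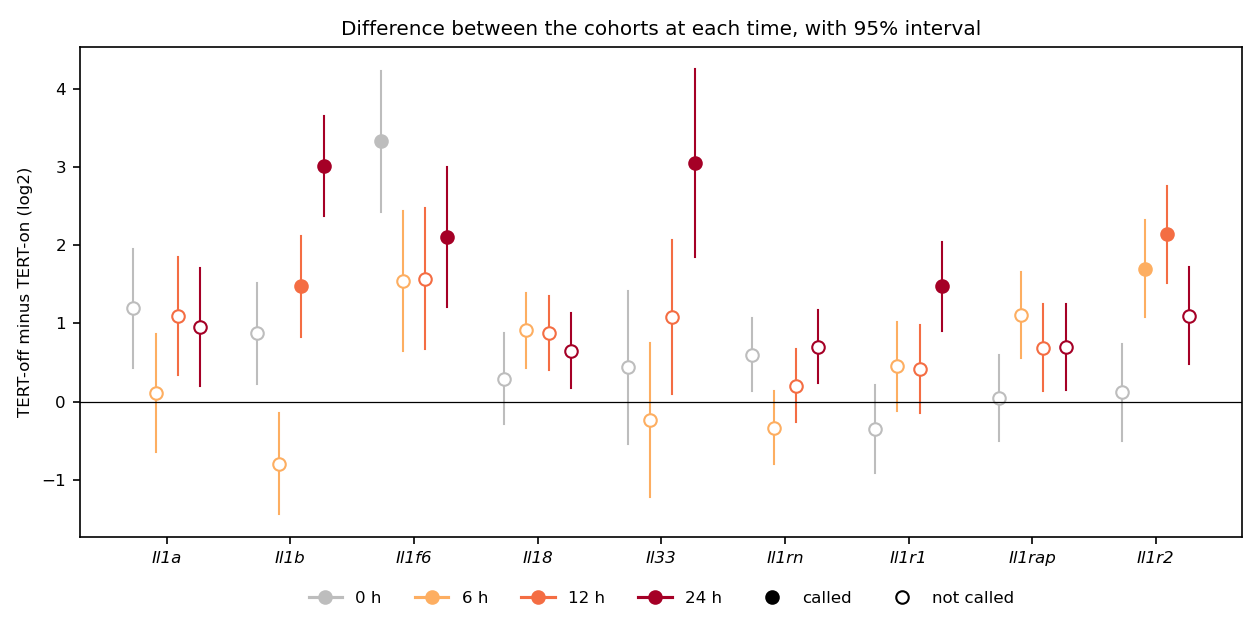
TERT-off minus TERT-on (log2) at 0, 6, 12 and 24 h for each measured gene, with 95% interval from limma; filled points were called. Il1b runs from −0.80 at 6 h to 3.01 at 24 h, Il1r2 is called at 6 and 12 h, and Il1f6 has its largest difference, 3.33, at 0 h.

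Of the brakes, Il1r2 was called over 6 to 24 h and Il1rn was not, and the difference between them was not tested. The antagonist Il1rn read 550.1, 355, 640.1 and 562 in TERT-off replicate 1 and 439.8, 354, 405 and 565 in TERT-off replicate 2. It read 311, 434, 467 and 293 in TERT-on replicate 1 and 339, 461, 419 and 409.7 in TERT-on replicate 2. Both TERT-off values lay above both TERT-on values at 0 h, below them at 6 h and above them at 24 h, with overlap at 12 h. The difference at 0 h was 0.60 (adjusted p = 0.561). Its difference over 6 to 24 h was 0.19 (95% interval −0.10 to 0.48, adjusted p = 0.307), and no single time passed. The other probe sets of Il1rn gave 0.16 and 0.09 over 6 to 24 h, also not called.

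Il1r2, the decoy receptor, gave the lowest adjusted p of the 9 genes over 6 to 24 h. Its intensity was 642, 1956, 1508 and 647 in TERT-off replicate 1 and 443, 1293, 1599 and 975 in TERT-off replicate 2. The TERT-on mice showed 459.9, 475, 363 and 477 (replicate 1) and 525, 505, 341 and 287 (replicate 2). The cohorts overlapped at 0 h, and from 6 h on all 6 TERT-off arrays lay above all 6 TERT-on arrays. The difference was 1.65 over 6 to 24 h (standard error 0.18, adjusted p = 0.000755), 1.70 at 6 h (adjusted p = 0.0274) and 2.14 at 12 h (adjusted p = 0.013). At 24 h it was 1.10 and did not pass (adjusted p = 0.0727). Il1r2 was the 1 gene of 9 called at 6 h, where 1.14% of all genes were called higher.

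Within the TERT-off mice, Il1r2 rose over 6 to 24 h relative to its own 0 h level by 1.23 (standard error 0.22, adjusted p = 0.0423), and was the 1 gene of 9 called there, against 0.366% of all genes. This call was lost when any 1 mouse or the TERT-on 0 h array of replicate 1 was left out, and under 6 other settings. In TERT-on mice the change of Il1r2 was −0.30 (adjusted p = 0.477). The difference of the changes was 1.53 (95% interval 0.84 to 2.22) and did not pass (adjusted p = 0.276). In that test 0 of the 9 genes were called by limma, 4 at an unadjusted p under 0.05, and 0.00795% of all genes were called. These 4 differed in sign: Il1r2, Il1r1 (1.13) and Il1rap (0.79) were positive and Il1f6 was negative (−1.59, 95% interval −2.59 to −0.59). Within TERT-on mice 0 of 9 were called, 3 at an unadjusted p under 0.05, against 0.183% of all genes. Of these 3, Il1f6 (1.55) and Il1b (0.85) were higher than at 0 h and Il1r1 (−0.54) was lower.

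Both measured signalling receptors were higher over 6 to 24 h. Il1r1, the receptor of Il1a and Il1b, measured 186, 275, 229.8 and 346 in TERT-off replicate 1 and 203, 251, 240.1 and 481 in TERT-off replicate 2. TERT-on replicate 1 gave 345, 209, 179 and 159, and replicate 2 gave 177, 176, 174 and 136. After 0 h the cohorts did not overlap. The difference was 0.78 over 6 to 24 h (standard error 0.16, adjusted p = 0.00758) and 1.47 at 24 h (adjusted p = 0.0218). The array of TERT-on 0 h replicate 1, at 345, carried the high value at 0 h.

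Il1rap, the shared accessory chain, gave 111, 159, 102 and 92.7 in TERT-off replicate 1 and 71.6, 129, 114 and 126 in TERT-off replicate 2. In the TERT-on cohort, replicate 1 gave 106, 66.2, 72.5 and 69.3 and replicate 2 gave 71.1, 66.2, 61.6 and 63.9. The cohorts overlapped at 0 h and did not overlap from 6 h on. The difference over 6 to 24 h was 0.83 (standard error 0.16, adjusted p = 0.0056). The other probe sets of Il1rap that passed the filter read 0.38 (adjusted p = 0.0641) and 0.49 (adjusted p = 0.1), in the same direction but not called, so the call rests on 1 of 3 probe sets.

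All TERT-off arrays of 6 to 24 h lay above all TERT-on arrays for 4 of the 9 genes, Il1f6, Il1r1, Il1rap and Il1r2, against 6.61% of all genes. At 12 h, 2 of the 9 were called (Il1b and Il1r2), against 1.89% of all genes. At 24 h, 4 were called (Il1b, Il1f6, Il1r1 and, from 1 TERT-off array, Il33), against 1.83%. With no filter on low values, the counts at 0, 6, 12 and 24 h were 0, 0, 1 and 1. When either TERT-on mouse was left out, the counts at each of 0, 6, 12 and 24 h were 0. Without TERT-off replicate 1 the counts at 0 and 6 h were 0. Without TERT-off replicate 2 the count was 4 at 6 h and 2 at 24 h, where Il33 could not be tested. Correlations among the members varied. Over the 16 arrays, or 15 where a value was missing, the highest Pearson correlations between members were 0.86 for Il1a with Il1f6 and 0.85 for Il1rap with Il1r2, while Il1a with Il1b gave 0.39. These arrays share mice and cohorts, and the correlations are descriptions.

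Among all genes, the profiles most like Il1b were those of Mcoln2 (r = 0.97, 15 arrays), Fpr2, a formyl peptide receptor of phagocytes (0.95), and Clec4d, a lectin of myeloid cells (0.95, 16 arrays each). Those most like Il1r2 were Il22ra2, the soluble decoy for interleukin-22 (0.97), Slc43a3 (0.96) and Adprm (0.95). Il1f6 was most like Abca12, the lipid transporter of the epidermal barrier (0.94), its family member Il1f9 (0.93) and Icos (0.93). Il1a was most like the lipases Lipn and Lipk (both 0.93) and Wdr61 (0.92). For Il33 the closest was Csf2rb2 (0.92), for Il18 Pdzk1ip1 (0.96), for Il1r1 Cmtr1 (0.86) and for Il1rap Ranbp9 (0.95).

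Apart from Il18, Il33 and Il1rap, the listed genes lie in runs with no other protein-coding gene between them in the RefSeq order. Il18, Il33 and Il1rap are on chromosomes 9, 19 and 16. On chromosome 1 the run is Il1r2, Il1r1, Il1rl2, Il1rl1, Il18r1 and Il18rap, and all 5 of its measured genes were higher in TERT-off skin over 6 to 24 h, against 16.9% of all genes. Their differences were 1.65, 0.78, 0.77, 1.20 and 0.93 in that order without Il1rl1. Il1rl2 binds the interleukin-36 ligands, and Il18r1 and Il18rap form the receptor of interleukin-18. On chromosome 2 the run is Il1f8, Il1f9, Il1f6, Il1f5, Il1f10 and Il1rn, and 2 of its 6 genes were called, the neighbouring agonists Il1f9 (1.79) and Il1f6 (1.74), against the same 16.9% of all genes. At 0 h the differences were already 1.71 for Il1f9, which did not pass (adjusted p = 0.312), and 3.33 for Il1f6. Il1f8, a further agonist, gave 0.04, and the antagonist Il1f5 gave 0.54 (adjusted p = 0.099). Il1a and Il1b are neighbours elsewhere on chromosome 2.

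**Figure D3:**
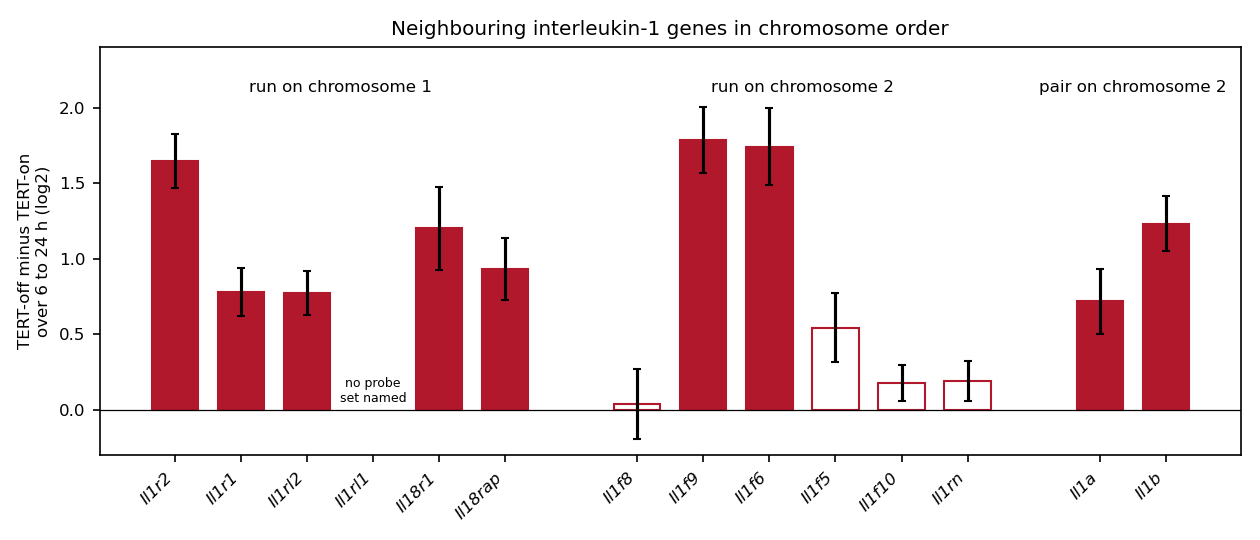
TERT-off minus TERT-on (log2) over 6 to 24 h (bars, with standard error) for interleukin-1 genes in chromosome order; filled bars were called. The 5 measured genes of the chromosome 1 run lie between 0.77 and 1.65, and in the run on chromosome 2 only Il1f9 and Il1f6 are filled.

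Of the 9 other genes of the family tested over 6 to 24 h, 5 were higher and 0 lower, against 16.9% of all genes called higher, with a median of 0.74 (0.40 at 0 h). Beside Il1f9, Il1rl2, Il18r1 and Il18rap, this took in Il18bp, the soluble trap for interleukin-18 (0.74, adjusted p = 0.0144). Sigirr, an inhibitory receptor, gave 0.24 and did not pass. Without TERT-on replicate 1 the count was 2 and without TERT-on replicate 2 it was 0.

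The machinery that matures the ligands was also higher in TERT-off skin where it was called. Of 12 listed processing genes 6 could be tested, and 4 were higher and 0 lower, against 16.9% of all genes called higher. Casp4, the inflammatory caspase that senses lipopolysaccharide inside the cell, had a difference of 1.58 (adjusted p = 0.0047), Gsdmd, the pore that lets mature interleukin-1 beta out, 0.81 (adjusted p = 0.0066), and Casp1, the converting enzyme, 0.78 (adjusted p = 0.0194). Capn2, of the calpain family that trims interleukin-1 alpha, had 0.50 (adjusted p = 0.00897), while Capn1 of the same family gave −0.12 and did not pass (adjusted p = 0.53). Pycard, the inflammasome adaptor, gave 0.35 and did not pass (adjusted p = 0.0504). At 0 h the differences of Casp4, Gsdmd, Casp1, Capn2 and Pycard were 0.85, 0.43, 0.69, 0.19 and 0.43, none of them called. The median of the list was 0.43 at 0 h and 0.64 over 6 to 24 h. The count was 0 without TERT-on replicate 2.

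Below the receptors, 4 genes of the signalling chain were called. Of 15 tested genes of 18 listed, 4 were higher and 0 lower, near the share of 16.9% called higher among all genes, and the median was 0.15. The 4 were Irak3, a kinase-like inhibitor of the pathway (0.62, adjusted p = 0.0246), Nfkbia, the inhibitor of NF-κB (0.48, adjusted p = 0.0202), the adaptor Myd88 (0.43, adjusted p = 0.0221) and the kinase Irak2 (0.41, adjusted p = 0.0282). Irak1, Traf6, Map3k7 and Rela gave 0.15, −0.09, −0.23 and 0.11 and were not called. The count was 0 when either TERT-on mouse was left out.

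Genes that interleukin-1 is known to induce had the highest median of the 4 lists, and most of their calls came at 24 h. Of 16 tested of 22 listed, 11 were higher over 6 to 24 h and 0 lower, against 16.9% of all genes called higher, with a median of 1.09. The medians in order of time were 0.78, −0.08, 0.93 and 2.39. The genes called higher at those 4 times numbered 0, 0, 2 and 9, against 0.0318%, 1.14%, 1.89% and 1.83% of all genes. The filter asks for only 2 arrays above the table median, so a gene can pass it through the group where it is high. Il6, among the 9 called at 24 h (3.83), lay under the floor on 8 of 16 arrays. The count at 24 h may in part be set by that. With a filter on 8 arrays, 13 of the listed genes were tested and 11 were higher over 6 to 24 h. The count at 24 h was not retaken under that filter. S100a9 (3.27, adjusted p = 0.000537), Lcn2 (2.19, adjusted p = 0.00694) and S100a8 (2.13, adjusted p = 0.0018), antimicrobial proteins of keratinocytes and neutrophils, led over 6 to 24 h, followed by the metalloproteinase Mmp3 (1.90, adjusted p = 0.00509). At 0 h these 4 genes had differences of 2.71, 1.74, 1.94 and 1.51 in that order, none of them called. The chemokine genes Cxcl1 and Ccl2, chosen here after their values were seen, gave differences of 4.34 and 4.71 at 24 h. They gave 0.82 and 2.27 at 0 h and −1.50 and −1.77 at 6 h, where neither passed. The count over 6 to 24 h was 5 without TERT-on replicate 1, 2 without TERT-on replicate 2 and 7 with no filter on low values. Many of these genes are also induced by other signals, and their link to interleukin-1 in this skin was not tested.

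**Figure D4:**
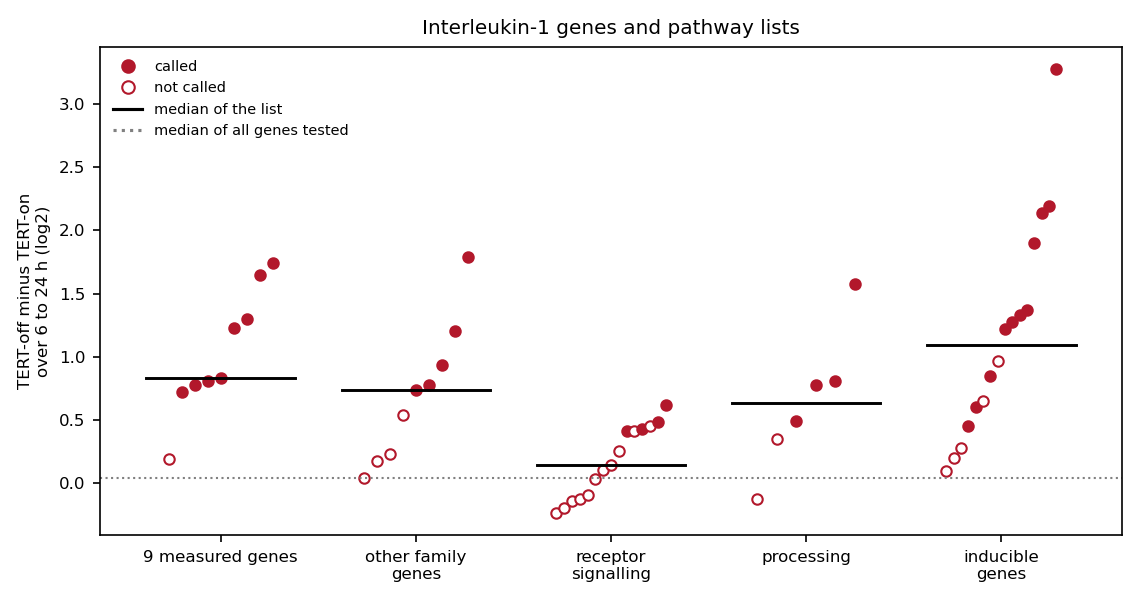
TERT-off minus TERT-on (log2) over 6 to 24 h for the 9 measured genes and 4 lists of related genes, 1 point a gene, filled where called, with the median of each list and of all genes (dotted, 0.04). The medians are 0.83 for the 9 genes, 0.74 for the other family genes, 0.15 for receptor signalling, 0.64 for processing and 1.09 for the inducible genes.

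Markers of leukocytes were often higher in TERT-off skin as well. Of 7 tested neutrophil markers of 12 listed, 6 were higher over 6 to 24 h, against 16.9% of all genes called higher. Their median differences were 0.43 at 6 h and 3.27 at 24 h. The summed intensity of the 9 with a named probe set at 6 h was 1514 to 1560 in TERT-off mice, against 761 to 1033 in TERT-on mice, and at 24 h it was 2535 to 2652 in TERT-off mice, against 610.3 to 636 in TERT-on mice. At 0 h the sum was 2284 to 2304 in TERT-off mice and 461 to 672 in TERT-on mice, while the median difference there was 0.33. Only Stfa3 was called at 0 h (2.23), Clec4d gave 1.60 and was not called, and the other 5 tested lay between −0.29 and 0.77. The TERT-off sums at 6 h and the TERT-on sums at 0 h lacked 1 value each. Of the defining markers, Ly6g had no named probe set, Cxcr2 lay under the floor of 7.71 on 10 of 16 arrays and Camp on 15. Mmp8 lay under it on 7 and Csf3r on 4. The filter asks for only 2 arrays above the table median, so a marker can pass it through the group where it is high. The count of 6 of 7 may in part be set by that. All 8 macrophage markers were higher over 6 to 24 h (median 1.47, summed intensity 5098 to 12263 in TERT-off and 2958 to 5744 in TERT-on mice). So were 7 of 8 mast cell markers (1.54, with 1561 to 3144 in TERT-off and 723 to 1490 in TERT-on mice). Of 4 T cell markers tested, 2 were higher (0.97, with 562 to 1265 in TERT-off and 456 to 769 in TERT-on mice). The share of all genes called higher was 16.9%. At 0 h the median differences of macrophage, mast cell and T cell markers were already 1.02, 0.92 and 0.47, with 0 markers called.

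Of the skin's own cells, 0 of 6 basal keratinocyte markers were called (median 0.15, and 10222 to 15316 in TERT-off against 12265 to 15319.9 in TERT-on mice), and Krt5 and Krt14, which define these cells, were at 2435 or more on every array. Suprabasal keratinocyte markers were lower in 2 of 6 cases (median −0.05), wound keratinocyte markers in 1 of 5 (−0.52), and Langerhans and dendritic markers were called in 0 of 5 (0.41). Over all 12571 genes tested, 1589 were called lower. The wound keratinocyte markers had median differences of 0.58, −1.30, −1.18 and 1.79 in order of time, and Krt16, a keratin of wounded epidermis, was called higher at 24 h (3.04, adjusted p = 0.0294). Fibroblast markers were higher in 5 of 6 (0.69) and endothelial markers in 4 of 5 (0.65), against 16.9% of all genes called higher. All 8 tested hair shaft markers were lower (median −5.18), against the same 1589 of 12571 genes. Their sums were 156 to 20949 in TERT-off and 5465 to 27898 in TERT-on mice. At 0 h their median difference was already −1.73, with a sum of 245 in TERT-off replicate 1 and 25507 in replicate 2. The TERT-off sums were 161 to 20949 at 6 h, 156 to 1057 at 12 h and 181 to 599 at 24 h. In whole skin, more cells of a type and more RNA per cell cannot be told apart, and the part of these cell markers in the differences of the interleukin-1 genes was not tested.

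The arrays had median intensities of 32.9 to 36.3, and the ratio of 5′ to 3′ Gapdh signal, a measure of intact RNA, was 0.0599 on the array of TERT-on 0 h replicate 1 against 0.977 to 1.12 on the others. The fit used 1 correlation of 0.0728 between arrays of the same mouse for all probe sets. Serial biopsies of 1 mouse were thus treated as nearly independent. The p-values therefore mostly measure the spread between arrays, and less that between mice. For Il1a, Il1f6 and Il18, replicate 1 read above replicate 2 in both cohorts at every time with both values. The small number of mice and biopsies limits the precision of every difference.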

How the data were processed

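The authors deposited 1 linear intensity per probe set and array, for which dChip had normalized on an invariant set and modelled perfect-match minus mismatch signal. The 20th percentile of these intensities (7.71) served as a floor before the log2 step, which can shrink differences of dim probe sets. Probe sets above the table median (34.4) on at least 2 arrays and measured in all 8 groups were tested. The probe set with the highest mean stood for its gene. Symbols came from the platform annotation, updated through gene IDs to RefSeq. One limma fit (version 3.58.1, R 4.3.3, statmod 1.5.0) held 8 group means and the mouse as random block (consensus correlation 0.0728), with two-sided tests. The study used SAM at a false discovery rate under 0.05. SAM was not run here; limma was used because it takes the mouse as a block.

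The study describes serial biopsies, and arrays of 1 number within a cohort were taken as those of 1 mouse, an assumption that no label states. Their deviations from the group means correlated above 0.1 in 9 of 12 pairs. Named genes were all members, up to 4 called genes per list and up to 3 of the most correlated genes per called member. Other genes were named after their values were seen. The members, lists and tests were chosen with earlier results of these data known, and so support nothing independently. The script was tested on simulated data. Alternatives covered the floor, filter, scaling, block, moderation, times, probe sets and each mouse. Figures were drawn with matplotlib 3.10.9.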

Additional observations from a re-analysis of the deposited data

Results flagged for a closer look

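Il1b was flagged because its effect differed between times: the difference of TERT-off minus TERT-on at 24 h exceeded that at 6 h by 3.81 on the log2 scale (adjusted p = 0.00902 from limma), with both TERT-off mice below both TERT-on mice at 6 h and above both at 0, 12 and 24 h. The comparison was added after the values had been seen, and the call was lost when TERT-off replicate 2 or either TERT-on mouse was left out. Summed neutrophil markers of the TERT-off mice were 2284 to 2304 at 0 h and 1514 to 1560 at 6 h. They were 1435 to 1676 at 12 h and 2535 to 2652 at 24 h. The part of these markers in the result was not tested.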

How the results depend on the processing

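With 2 mice a cohort, single mice set how many calls were made. Leaving out 1 mouse or the TERT-on 0 h array of replicate 1, the count of the 9 genes called ranged from 0 to 8 over 6 to 24 h, 0 to 1 at 0 h, 0 to 4 at 6 h, 0 to 2 at 12 h and 0 to 3 at 24 h, was 0 throughout for the change in TERT-off mice, and ranged from 0 to 1 for the 24 h against 6 h effect; called probe sets over 6 to 24 h ranged from 62 to 7974, against 6625. Under the other alternatives the count over 6 to 24 h was 8, or 7 with no filter. With no filter on low values, the counts were 0 at 0 h, 0 at 6 h, 1 at 12 h, 1 at 24 h and 0 for the change in TERT-off mice. That change gave 2 with a pseudocount of 16, and 0 with quantile normalization, with no block, with no trend and with the mouse as a fixed effect; the last gave 1 for the change in TERT-on mice (Il1f6) and 2 for the 24 h against 6 h effect (Il1b and Il33). The replicate numbers are shared by, but do not pair, mice of different cohorts, whose deviations correlated above 0.1 in 7 of 16 pairs. With the replicate block, counts were 4 at 6 h, 5 at 12 h and 6 at 24 h. They were 0 for the change in TERT-off mice, 1 for that in TERT-on mice and 2 for the 24 h against 6 h effect. Centring the arrays on their medians gave 3456 higher and 3426 lower probe sets over 6 to 24 h and quantile normalization 3492 and 3271, against 3854 and 2771. Of 1144 recomputed differences of single genes, 11 changed sign, none of them called, all with arrays left out: Il33 at 0 h (range −0.34 to 1.21) and at 6 h (−0.75 to 0.28), Il1r1 at 0 h (−0.83 to 0.13), Il1rap at 0 h (−0.28 to 0.36), Il1r2 at 0 h (−0.15 to 0.38), Il1a at 6 h (−0.27 to 0.48) and Il1rn at 12 h (−0.13 to 0.53). The cause of these shifts was not tested.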
